A study of Caenorhabditis elegans with 29 samples.

Results

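The cytosolic ribosomal protein genes of Caenorhabditis elegans were followed in dissected gonads with RNAi against P-granule genes, with mutations in them, or with neither. P granules are bodies of RNA and protein in germ cells, and the reads do not measure them. The genes were chosen by name alone: rows of the deposited gene table named rpl- (large subunit) or rps- (small subunit) followed by a number, without rpl-25.1. This gave 75 of 45627 genes, 44 of the large and 31 of the small subunit. Of these, 74 had a read in at least 1 library, and rpl-16 was listed at 0 in all 29 libraries.

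RNA was sequenced from gonads of worms at 24 °C, and groups held 3 libraries each unless stated. The strain DP132, which carries the transgene edIs6 on chromosome IV, made up 7 groups. This transgene joins rol-6 to a reporter, unc-119::gfp, driven by the promoter of unc-119, a gene active in neurons. Parents of these worms were fed from the first larval stage either empty vector bacteria (control) or bacteria with double-stranded RNA against 4 P-granule genes (RNAi), namely glh-4 and glh-1 with pgl-3 and pgl-1, and gonads came from the offspring. Dissection was at the fourth larval stage (L4 control, L4 RNAi), 1 day later (Day 1 control, Day 1 RNAi) and 2 days later (Day 2 control, Day 2 RNAi). At Day 2, RNAi gonads in which the reporter could be seen (GFP-positive) and those without it (GFP-negative) made separate groups. The other 3 groups, all Day 1 adults not fed RNAi bacteria per the labels, were wild type (SS1174), glh-1(gk100) I (SS0804, 2 libraries) and pgl-1(ct131) him-3(e1147) IV (SS0002). The last strain also carries a mutation in him-3, a gene of the meiotic chromosome axis. Each library pooled 75 to 100 control gonads or 125 to 150 RNAi gonads. Adult RNAi gonads came only from sterile worms, and stunted ones were collected whole where control gonads were cut at the bend. RNAi and the part of the gonad taken can therefore not be told apart in adults. At L4 sterility could not be seen, and over 80% of siblings left to age were sterile.

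A ribosome has a small subunit that decodes the messenger RNA and a large subunit that joins amino acids, and its proteins are needed in equal numbers. Cells that grow make these proteins in bulk, and in many organisms their genes are switched up and down together with nutrients and growth signals such as the TOR pathway. The C. elegans germ line is rich in ribosomes, because germ cells of the gonad supply growing oocytes, through a shared cytoplasm, with ribosomes for the embryo. Most ribosomal proteins of the worm have a single gene, and a few, such as the large subunit protein of rpl-11.1 and rpl-11.2, have a pair. The comparisons ask what happens to this set of genes when P-granule genes are targeted or mutated. They also follow the set as larvae turn into adults and as sterile gonads begin to show the neuronal reporter.

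Reads on genes ran from 1027223 to 9079321 per library. Within each group the letters a, b and c run from the deepest library to the shallowest, since replicate numbers are not known. Levels are normalized reads, worked out per library from the deposited group averages. The 4 targeted transcripts were lower in every RNAi library than in every control library of their stage; pgl-1, for example, stood at 18.9 to 36.8 in Day 1 RNAi and 1885 to 1998 in Day 1 control. The glh-1 transcript was not lower in glh-1(gk100) gonads (1942 to 2311) than in wild type (954 to 2218), and a count over the whole gene does not check that deletion. In pgl-1 mutant gonads pgl-1 stood at 122 to 308 against 1113 to 2339 in wild type. Some libraries stood apart: Day 1 control c had reads on 17627 genes at 1221224 reads, against 13453 and 13553 genes in the deeper libraries a and b. Likewise Day 1 RNAi c had reads on 19256 genes at 1027223 reads, against 16902 and 16947 genes in libraries a and b of that group. Fewer cells of a type and less RNA per cell cannot be told apart in these bulk samples. Whether replicates came from separate cultures is not stated in the labels, so a p-value measures only the spread between these samples, which may be technical.

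In control and wild-type gonads these 75 genes took 7.79 to 12.9% of reads on genes, and the share was smaller in each RNAi and mutant group. In Day 1 control they took, in order of depth, 9.17, 9.76 and 11.7% of reads on genes, and Day 1 RNAi libraries 7.30, 6.57 and 6.81%. At L4 the shares were 10.9, 12.9 and 12.2% in control and 9.13, 9.47 and 8.79% in RNAi. Day 2 control gave 11.3, 12.1 and 7.79%, GFP-negative RNAi 6.38, 5.33 and 6.02%, and GFP-positive RNAi 6.68, 7.19 and 7.02%. No RNAi library reached the lowest control library of its own stage, although Day 2 control c, at 7.79%, lay far below the other two (mean 11.7% without it). Wild type gave 10.5, 12.2 and 9.24%, glh-1 mutants 6.35 and 7.93%, and pgl-1 mutants 5.57, 8.67 and 6.99%, again without overlap. Group means ± SD were 12.015 ± 1.04, 10.2 ± 1.32 and 10.4 ± 2.31% in L4, Day 1 and Day 2 control, and 9.13 ± 0.337 and 6.89 ± 0.370% in L4 and Day 1 RNAi (n = 3 each). The Day 2 RNAi groups had 5.91 ± 0.533% (GFP-negative) and 6.96 ± 0.259% (GFP-positive) (n = 3 each). For the mutant experiment they were 10.6 ± 1.49% in wild type and 7.08 ± 1.55% in pgl-1 (n = 3 each), and 7.14 ± 1.12% in glh-1 (n = 2). The balance of the subunits hardly moved, with a ratio of large to small subunit reads between 1.204 and 1.377 over all 29 libraries.

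**Figure D1:**
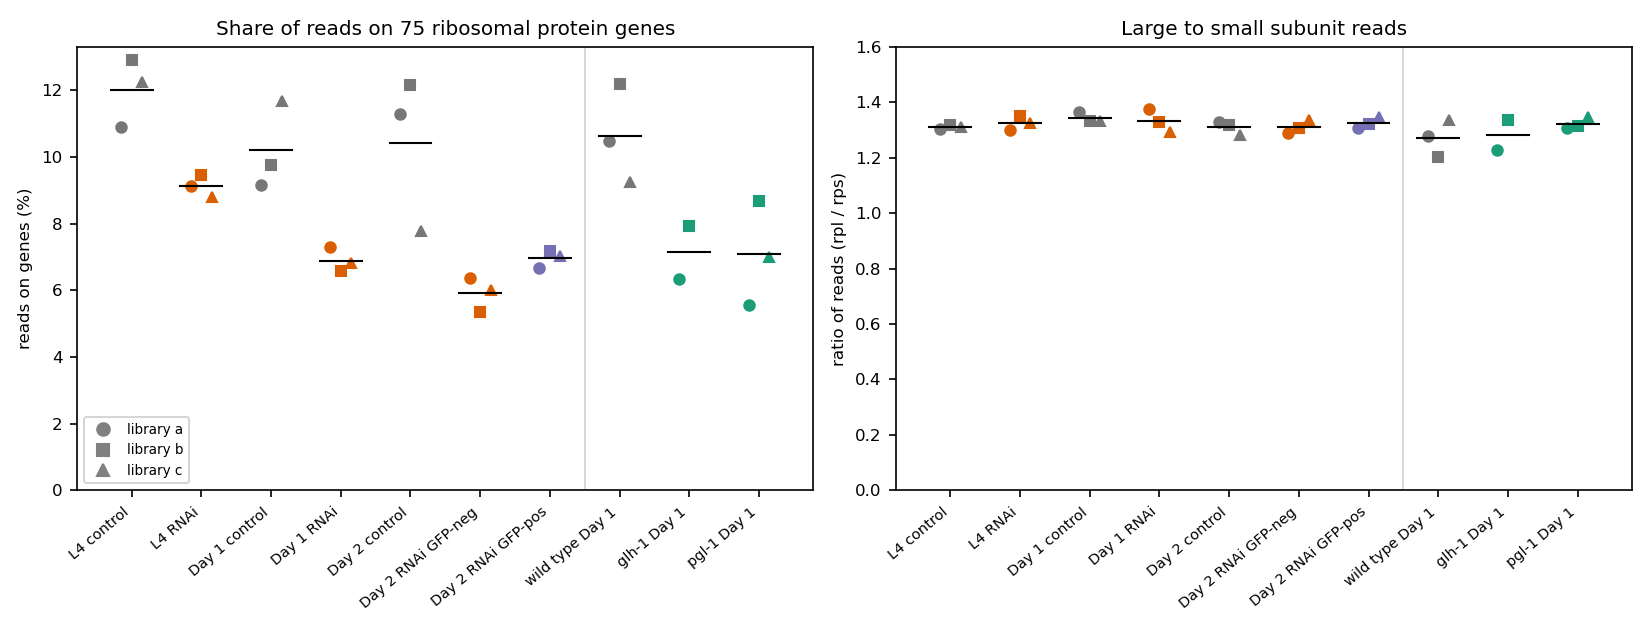
Left, percent of reads on genes that fell on the 75 ribosomal protein genes, 1 point per library and a line at each group mean; right, the ratio of large to small subunit reads on the same libraries. Every RNAi library lies below the control libraries of its stage on the left, while the ratio stays between 1.204 and 1.377.

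Per kilobase of exon, the 5 highest levels in Day 1 control were those of rps-28 (14731 normalized reads per kb), rps-23 (12696), rps-25 (12522), rpl-4 (12002) and rpl-15 (11817). The gene rps-23 encodes a protein of the decoding centre, and rpl-4 one that lines the tunnel through which the new protein leaves. The spread over the set was narrow: the median was 8615 normalized reads per kb, and the 10th to 90th percentile of the members ran from 5967.5 to 10962 per kb. In Day 1 RNAi the median was 5742 normalized reads per kb, and in the GFP-negative and GFP-positive gonads of Day 2 it was 4742 and 6226.5. Genes rps-28, rps-23, rps-25 and rpl-4 were also among the top 5 per kb in L4 control, and rps-28, rps-23, rps-25 and rpl-15 in Day 2 control. The spread of a member's level between libraries depended on the group, with a median coefficient of variation of 4.8 to 15.2% in the RNAi groups, L4 control and Day 1 control, and of 24.6 to 30.0% in Day 2 control, wild type and the mutants. The genes lie on all 6 chromosomes (21 on I, 10 on II, 18 on III, 17 on IV, 8 on V) but only rpl-11.2 on the X. The authors' own categories place 51 of the 75 among ubiquitous genes and 2, rpl-11.1 and rpl-25.2, among germline-enriched ones. Exons of 14 members share bases with another gene, and the library kit did not mark the strand, so a few reads of those may belong to a neighbour.

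At L4 no ribosomal protein gene passed the authors' test, although nearly all of them were lower in each RNAi library. The authors' deposited table called 0 of 74 members lower and 0 higher, where 0.0824% of all genes with an adjusted p fell and 0.119% rose. A limma voom fit also called 0 members. An unadjusted p under 0.05 was found for 9 of 74 members and 979 of 23460 genes fitted. The median log2 fold change of the members in the authors' deposited table was −0.43, against 0.01 for all genes. The lowest values there were −0.62 for rps-21, −0.60 for rps-9 and −0.59 for rpl-28, with Benjamini-Hochberg (BH) adjusted p of 0.712, 0.614 and 0.721. Taken as a ratio of group averages, the median member was 1.43-fold lower. For 71 of the 74 members with reads, every RNAi library lay below every control library; over all genes fitted the share was 2.69%. With the scaling of that comparison alone in place of the scaling over all 7 groups, the count was 63.

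The small subunit gene rps-9 shows the L4 pattern. It stood at 7558, 9563 and 9059.9 normalized reads in control libraries a, b and c and at 5889, 5135 and 5224 in RNAi libraries. The RNAi libraries were lower throughout and close to each other. Large subunit gene rpl-4 stood at 14929, 19114 and 19113 in control and 13607, 13756 and 12071 in RNAi, also without overlap. Highest in the authors' deposited table were rpl-42 (0.22), rpl-24.2 (0.04) and rpl-11.2 (−0.14), the 3 members described apart below, each with a BH-adjusted p of 1. The list of 13 germ cell markers holds the RNAi targets pgl-1 and glh-1 as well as him-3, mutated in the pgl-1 strain, so sums and counts of germ cell markers here and below are those of the other 10, a choice made after the data were seen. They took 0.286 to 0.446% of reads in L4 control and 0.207, 0.541 and 0.559% in the L4 RNAi libraries, and somatic gonad markers 0.092 to 0.120% and 0.111 to 0.192%. None of these 10 and none of the 8 somatic gonad markers was called at L4, while pgl-1, glh-1 and him-3 fell. No germ cell marker was at 0, and the part of these differences in the ribosomal protein levels was not tested.

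At Day 1 almost the whole set fell. By the authors' deposited table, 70 of 74 members fell (10.4% of all genes did), 2 rose (19.4% of all genes did) and 2 did not pass. The falls there ran from −1.01 to −0.37 in log2 fold change, and the member median was −0.67 against 0.26 for all genes. By the ratio of group averages the median member was 1.53-fold lower. Lowest were rpl-7A (−1.01, BH-adjusted p = 6.63e-13), rpl-3 (−0.98, 4.7e-14) and rpl-12 (−0.98, 1.55e-15) in the authors' deposited table. All 3 belong to the large subunit; the protein of rpl-3 lies near the centre that joins amino acids, and that of rpl-12 at the base of the stalk that binds elongation factors.

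In Day 1 control the levels of rpl-12 were 4417, 4281 and 5489 normalized reads, and in Day 1 RNAi 2572, 2405 and 2467. The RNAi libraries agreed closely and lay well below all controls. Gene rpl-3 stood at 15371, 13672 and 18240.2 in control and 8996, 7413 and 8497 in RNAi, and rpl-7A at 6426, 5954 and 7926 and 3900.2, 3112 and 3476. Neither overlapped between groups, and library c was the highest control library for both. A 67-base stretch of rpl-7A exon is shared with a noncoding RNA gene on the opposite strand, Y24D9A.11, whose reads cannot be told from its own. The smallest fall was shared by rpl-23 and rps-24, at −0.37 each in the authors' deposited table (adjusted p = 0.00354 and 0.00213). In all, 65 members had every RNAi library below every control library, and the share over all genes was not worked out here.

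The 2 members that did not pass were rps-29 (log2 fold change −0.42, BH-adjusted p = 0.0806) and rpl-24.2 (−0.27, 0.405), by the authors' deposited table. The 2 that rose were rpl-42 and rpl-11.2, at 3.38 and 2.62 there. In the same contrast 9 of the 10 germ cell markers fell, and 6 of 7 somatic gonad markers, 10 of 10 sperm markers and 7 of 10 intestine markers rose. Germ cell markers summed to 0.75 to 0.793% of reads in control and 0.429 to 0.608% in RNAi, somatic gonad markers to 0.013 to 0.027% and 0.162 to 0.214%, and intestine markers to 0.929 to 1.78% and 2.27 to 8.35%. No germ cell marker was at 0, while sperm genes msp-3 and msp-57 were at 0 in control; the part of these changes in the fall of ribosomal protein genes was not tested. The number of falls depended on the fit: limma voom over all 7 groups called 6 falls and 2 rises, and voom on the Day 1 groups alone, an alternative chosen after the data were seen, called 68 and 2. In the fit over all groups the falls numbered 14 without Day 1 control c and 2 or 3 without any other Day 1 library. Shares over all genes were not worked out for these voom fits.

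At Day 2 again nearly the whole set fell. The Day 2 comparisons share their controls, so their values are set side by side and not treated as separate evidence. In GFP-negative gonads 71 of 74 members fell (21.5% of all genes did) and 2 rose (38.2% did), with a member median of −1.15 against 1.30 for all genes in the authors' deposited table. In GFP-positive gonads 71 of 74 fell (23.5% of all genes) and 1 rose (44.3%), with a member median of −0.98 against 2.08 for all genes in the authors' deposited table. The median large subunit gene was at −1.21 and −0.99 and the median small subunit gene at −1.14 and −0.97, in GFP-negative and GFP-positive gonads of the authors' deposited table.

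Lowest in GFP-negative gonads were rpl-7A, rpl-28 and rps-6, whose protein is the classic substrate of S6 kinase, at −1.52, −1.46 and −1.44 in the authors' deposited table (adjusted p = 1.83e-11, 1.18e-08 and 5.1e-12). The gene rpl-7A stood at 8247, 8318 and 4585 normalized reads in Day 2 control, 2779, 2605 and 2999 in GFP-negative and 3741, 3867 and 4152 in GFP-positive libraries. Both RNAi groups lay below all 3 controls, and control c was lower than the other controls. For rps-6 the levels were 9093, 9602 and 5544 in control, 3415, 3245 and 3493 in GFP-negative and 4705, 4823 and 4689 in GFP-positive libraries. GFP-negative libraries were the lowest, and no RNAi library reached a control. With all 7 groups on the same scale, 68 of 74 members had every GFP-negative library below every control. With the scaling of that comparison alone 71 did, and shares over all genes were not worked out.

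In GFP-positive gonads the lowest values in the authors' deposited table were those of rpl-25.2, rpl-11.1 and rpl-30, at −1.65, −1.50 and −1.37 (BH-adjusted p = 5.86e-13, 9.69e-20 and 7.51e-11). The first 2 are the germline-enriched copies of paralog pairs. Gene rpl-30 was at 3390.2, 3431 and 2051 in control, 1403, 1068 and 1276 in GFP-negative and 1492, 1617 and 1629 in GFP-positive libraries. Control a and b were highest, control c lower, and both RNAi groups below it. Genes rpl-24.2 and rpl-42 did not pass, at 0.06 and 2.57 (BH-adjusted p = 0.786 and 0.0559) in the authors' deposited table. The size of the fall in GFP-positive gonads rests on the scaling. Over all 7 groups the median member was 1.43-fold lower by the ratio of averages. It was 1.98-fold lower with the factors of that comparison alone, which put log2 ratios to control 0.46 lower. On the shared scale 26 members had every GFP-positive library below every control. On the other scale the count was 69, and no share over all genes was worked out. For GFP-negative gonads the same choice of scaling moved the median from 1.95-fold to 2.23-fold lower.

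Between the RNAi groups of Day 2 a few members differed. In the authors' deposited table, which covers all 74 members with reads here, 9 were higher in GFP-positive than GFP-negative gonads (19.4% of all genes were) and 1 was lower (18.6%). The member median there was 0.19 against 0.04 for all genes. Higher were rpl-11.2 (1.35), rps-13 (0.48, BH-adjusted p = 0.000415), rps-4 (0.41, 0.00143), rpl-38, rpl-3, rpl-31, rpl-26, rpl-9 and rps-10 in the authors' deposited table. Lower was rpl-11.1 alone (−0.57, 0.000373), followed without passing by rpl-42 (−0.58, 0.471) and rpl-25.2 (−0.29, 0.114). The level of rps-13 was 1663, 1474 and 1653 normalized reads in GFP-negative and 2669.6, 2749 and 2568 in GFP-positive libraries. These did not overlap, and GFP-positive libraries were higher. On the shared scale 66 members were higher in every GFP-positive library, and with the factors of that comparison 26. Those factors put log2 ratios of GFP-positive to GFP-negative levels 0.25 lower, and shares over all genes were not worked out. A limma voom fit on the shared scale called 20 higher and 0 lower, so rpl-11.1 did not pass there (adjusted p = 0.121). The share of all genes called by that fit was not worked out.

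Cell type markers moved along in both Day 2 comparisons with control. Between GFP-positive and GFP-negative gonads 0 of 10 intestine and 1 of 11 sperm markers were called, against 8 of 8 neuron markers. The 10 germ cell markers that were neither targeted nor him-3 summed to 0.756 to 0.792% of reads in Day 2 control, 0.373 to 0.449% in GFP-negative and 0.142 to 0.201% in GFP-positive gonads, and 10 of 10 fell against control in both. Somatic gonad markers summed to 0.010 to 0.011, 0.247 to 0.284 and 0.313 to 0.454%, and neuron markers to 0.012 to 0.013, 0.035 to 0.044 and 0.096 to 0.118%. Of the somatic gonad markers 7 of 8 rose in GFP-negative and 8 of 8 in GFP-positive gonads, and of the neuron markers 7 of 8 and 8 of 8. The neuron list holds unc-119, which is among the risers in both. Its promoter drives the reporter by which these gonads were sorted, so its part in these sums and counts is not independent of the sorting. Intestine markers took 0.648 to 1.13% of reads in control, 4.203 to 5.38% in GFP-negative and 4.84 to 6.55% in GFP-positive gonads, and 10 of 10 rose in both. All 11 sperm markers and 6 of 6 body muscle markers also rose in both. None of the germ cell markers was at 0 in these groups. Germ cell markers were thus lower in GFP-positive than in GFP-negative gonads (10 of 10 fell) while the share of reads on ribosomal protein genes was higher, 6.68 to 7.19% against 5.33 to 6.38%. The part of tissue makeup in these levels was not tested.

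**Figure D2:**
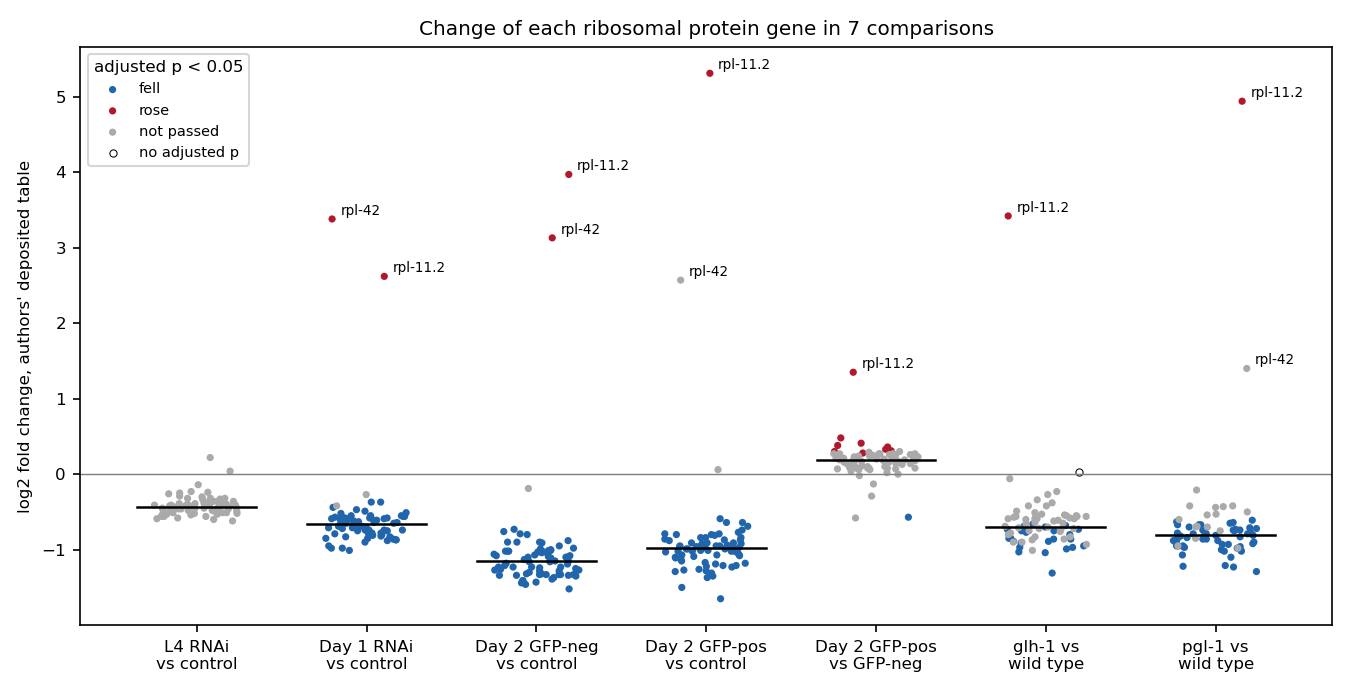
Log2 fold change of each ribosomal protein gene in the authors' deposited table, for 7 comparisons; colour gives the call at an adjusted p of 0.05 and lines the member medians. The set moves as a compact cloud with medians from −1.15 to 0.19, and in the 3 adult RNAi comparisons with control rpl-11.2 and rpl-42 stand far above it.

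Mutants of single P-granule genes, whose gonads came from worms never fed RNAi bacteria, were lower as well; the comparisons share their wild type. In pgl-1 mutants 56 of 74 members fell (8.84% of all genes did) and 1 rose (22.3%), with a member median of −0.80 against 0.45 for all genes in the authors' deposited table. In glh-1 mutants 25 of 73 members with an adjusted p fell (2.47% of all genes) and 1 rose (6.68%), with a member median of −0.71 against 0.04 in the authors' deposited table. Gene rps-2 was lowest in both, at −1.31 in glh-1 and −1.29 in pgl-1 mutants (BH-adjusted p = 0.0125 and 0.00442) in the authors' deposited table. Next came rps-1 (−1.04, 0.00324) and rps-19 (−1.03, 0.0404) in glh-1 mutants, and rpl-22 (−1.23, 0.000571) and rps-19 (−1.22, 0.00348) in pgl-1 mutants, by the authors' deposited table.

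Levels of rps-2 were 6529.7, 13994 and 3998 normalized reads in wild type, 2799.9 and 3168 in glh-1 and 2665, 4351 and 2677 in pgl-1 mutant libraries. Wild type varied over 3-fold, library b being far above the others, and pgl-1 mutant b overlapped wild type c. Gene rps-19 stood at 3809, 6746 and 2266 in wild type, 1965 and 1938 in glh-1 and 1460.5, 2402 and 1486 in pgl-1 mutants. Its pattern over the libraries was like that of rps-2, and wild-type library b was again the highest. A less variable member, rpl-3, stood at 13259, 14201 and 10061 in wild type, 6254 and 8497 in glh-1 and 5252, 7559 and 7140.1 in pgl-1 mutants, with all mutant libraries below wild type. By the ratio of averages the median member was 1.68-fold lower in glh-1 and 1.76-fold lower in pgl-1 mutants. Every mutant library lay below every wild-type library for 53 members in glh-1 (2 libraries) and 43 in pgl-1 (3 libraries). Fewer libraries separate more easily, so these counts are not comparable. The share over all genes was not worked out for either.

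In glh-1 mutants the 10 germ cell markers summed to 0.652 and 0.661% of reads against 0.659 to 0.860% in wild type, and 1 of 10 fell; somatic gonad markers summed to 0.054 and 0.073% against 0.013 to 0.020%, and 2 of 6 rose. In pgl-1 mutants these germ cell markers summed to 0.501 to 0.666%, with 5 of 10 lower, and somatic gonad markers to 0.063 to 0.121%, with 5 of 8 higher. Intestine markers summed to 0.549 to 0.715% in wild type, 0.928 and 3.46% in glh-1 and 2.25 to 3.06% in pgl-1 mutants, with 5 and 9 of 10 higher. Of the sperm markers with an adjusted p, 4 of 8 rose in glh-1 and 10 of 11 in pgl-1 mutants, and of the body muscle markers 3 and 5 of 6. No germ cell marker was at 0 in any of these libraries, while elt-2 of the intestine and 7 of 11 sperm markers were at 0 in wild type. Their part in the member levels was not tested. The glh-1 count rests on a pair of mutant libraries. In limma voom, 34 members fell in glh-1 and 62 in pgl-1 mutants. Without wild type a or b 2 or 8 fell in glh-1, and without pgl-1 library a 37 fell in pgl-1. Shares over all genes were not worked out for these fits.

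Control gonads show how the set behaves without RNAi. From L4 to Day 1 control, limma voom called 7 of 74 members lower (15.4% of the genes fitted fell) and 0 higher (5.47% rose). An unadjusted p under 0.05 was found for 24 of 74 members and 7292 of 23460 genes fitted, which are similar shares. The called members were rpl-11.2, rpl-42, rpl-22, rps-7, rps-9, rps-19 and rps-27. Gene rpl-22 fell by 0.52 on the log2 scale (SE 0.105, BH-adjusted p = 0.00197 in limma voom). Its levels were 3299.8, 3543 and 3396 normalized reads in L4 control and 2332, 2264 and 2868 in Day 1 control. All Day 1 libraries were below all L4 libraries. The median member differed by −0.40 in limma voom, and the median gene by −0.43. The count was 3 without Day 1 control a or any 1 of the L4 controls, and 17 without Day 1 control c. Between Day 2 and Day 1 control no member passed in limma voom, where 0.00426% of genes were called in each direction. An unadjusted p under 0.05 was found for 3 members and 3412 of 23460 genes fitted. Without Day 2 control c, however, 50 members were called higher at Day 2, and the share over all genes was not worked out.

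Whether the RNAi effect changed with age was tested as a difference of differences. Comparing the Day 1 with the L4 effect, limma voom called 2 of 74 members higher (4.45% of the genes fitted were) and 0 lower (0.141%). These were rpl-11.2 (difference 3.51, SE 0.752, BH-adjusted p = 0.00813) and rpl-42 (4.34, SE 1.03, 0.0164). For the other 72 the difference did not pass, and the median over the 74 was −0.12. Larger falls at Day 1 than at L4 were therefore not shown for the set, although its calls differ (70 and 0). Without Day 1 control a the difference passed for no member, and without Day 1 control b, Day 1 RNAi b or L4 control a it passed for 1. Comparing Day 2 GFP-negative with Day 1 effects, 0 members passed in limma voom, and 0.00426% of genes were lower and 0% higher. No member had an unadjusted p under 0.05, against 1606 of 23460 genes fitted. The median difference was −0.45, and 30 members passed as lower without Day 2 control c, where the share over all genes was not worked out.

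Apart from a few members, the set moved in near step. Genes rpl-11.2, rpl-42 and rpl-24.2 followed it least, and leaving them out makes the spread given here smaller. Over the 71 members left after rpl-16, rpl-11.2, rpl-42 and rpl-24.2, the SD of the log2 fold change was, by the authors' deposited table, 0.09 at L4, 0.14 at Day 1, 0.18 in GFP-negative, 0.20 in GFP-positive, and 0.19 in each mutant. The share that a member held of all reads on the set stayed within 1.2-fold of the control for all 71 at L4, 65 at Day 1, 62 in GFP-negative and 59 in the GFP-positive group, 56 in glh-1 and 62 in pgl-1 mutants. Farthest from the set were rpl-7A at Day 1, whose share was 0.32 lower on the log2 scale, and rps-24, whose share was 0.32 higher. In GFP-positive gonads rpl-25.2 held a share 0.66 lower and rps-16 one 0.41 higher on the log2 scale. The share of rps-2 was 0.58 lower in glh-1 and 0.40 lower in pgl-1 mutants on the log2 scale. The gene rpl-23 held a share 0.40 higher in GFP-negative gonads, 0.50 higher in glh-1 and 0.38 higher in pgl-1 mutants, on the log2 scale. Its levels were 4822, 5529 and 3748 normalized reads in Day 2 control and 3654, 2971 and 3071 in GFP-negative libraries, where control c came closest to the RNAi libraries but stayed above them.

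Longer genes fell somewhat more at Day 1: over these 71 members the Spearman correlation of log2 fold change in the authors' deposited table with exon length was −0.48. It was −0.00 at L4, −0.19 in GFP-negative, −0.13 in GFP-positive, −0.22 in glh-1 and −0.32 in pgl-1 comparisons. The members share libraries, so this is a description of these libraries. Across the 7 RNAi groups, each member's log2 average correlated with the mean over members at a Pearson r of at least 0.938, apart from rpl-25.2 (0.887), rpl-11.1 (0.841), rpl-24.2 (0.518), rpl-42 (−0.182) and rpl-11.2 (−0.310). The mean includes the member itself.

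**Figure D3:**
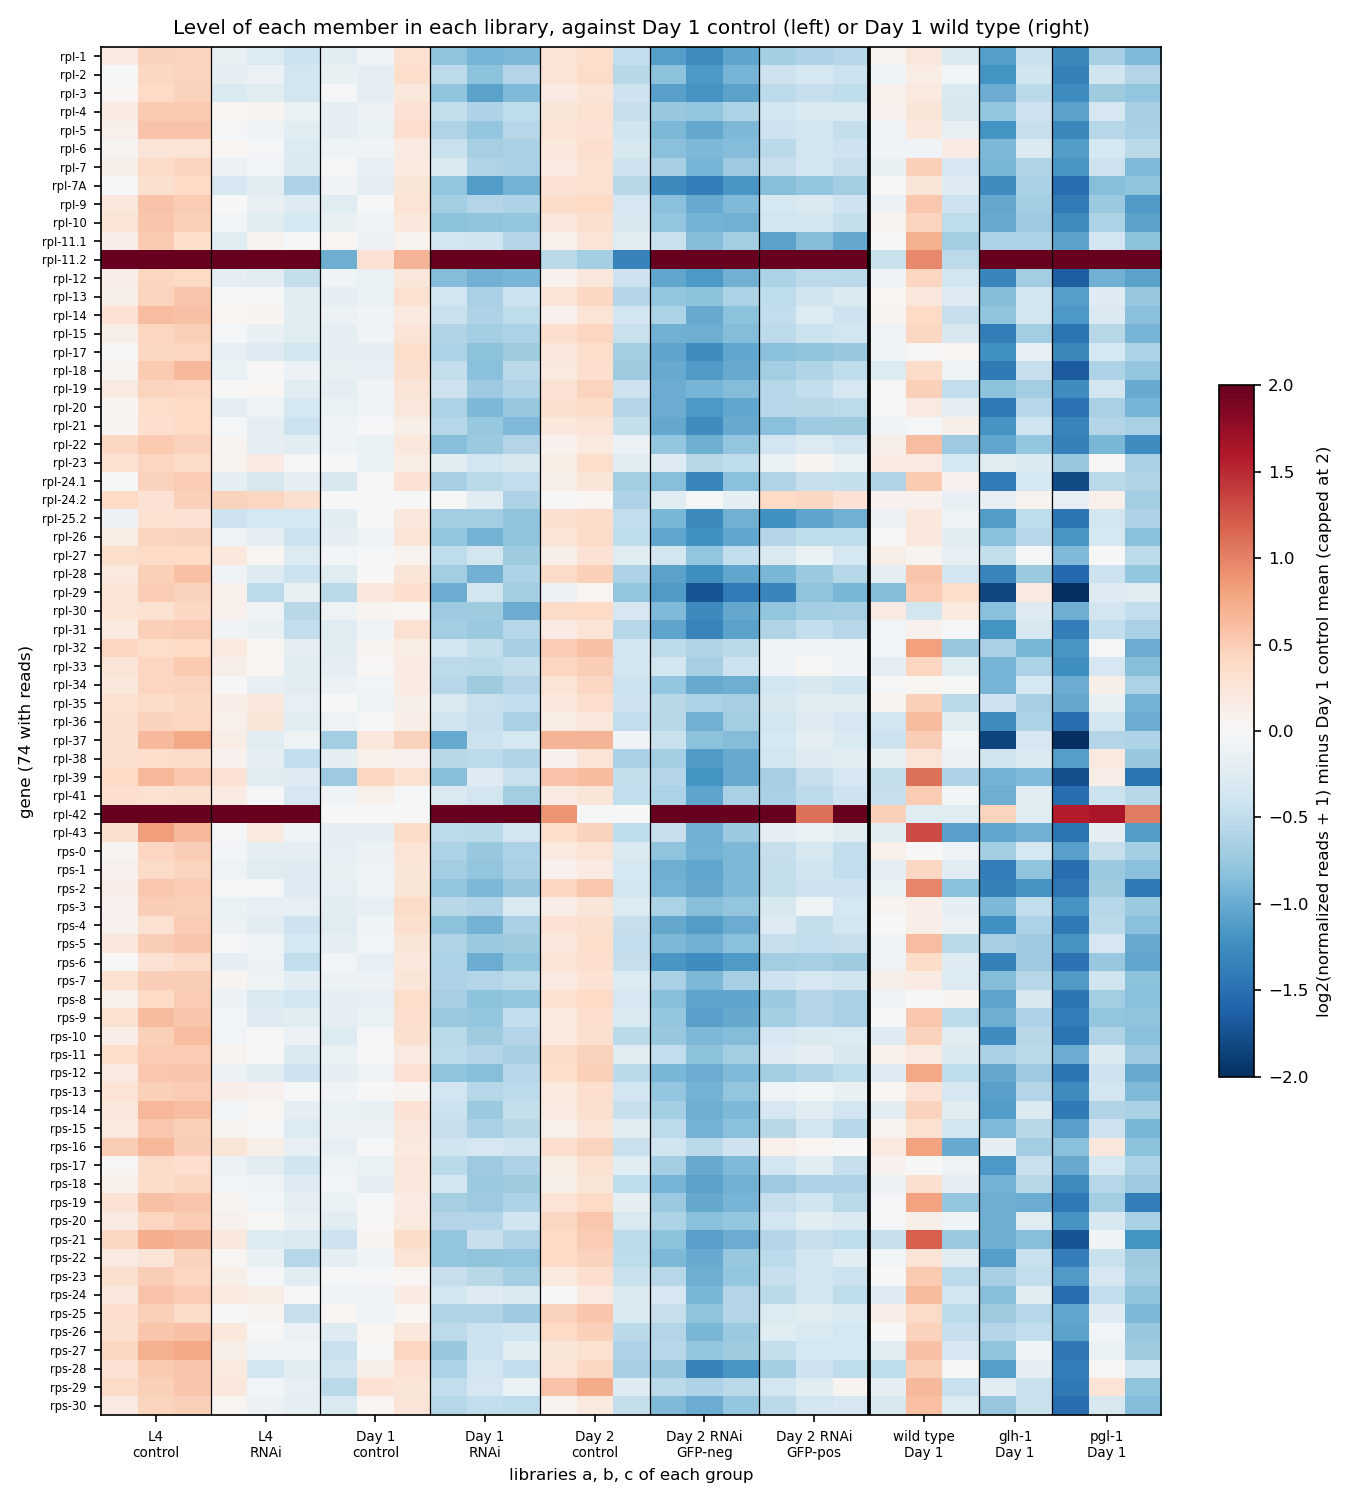
Level of each of the 74 members with reads (rows) in each library (columns), as log2(normalized reads + 1) minus the mean of Day 1 control, or of Day 1 wild type for the mutant experiment. Day 2 control c is paler or bluer than libraries a and b across nearly all rows, pgl-1 mutant a is the bluest column, and the rpl-11.2 and rpl-42 rows go against the rest.

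The pair rpl-11.1 and rpl-11.2 encodes versions of the same large subunit protein, and the copies moved in opposite directions. On chromosome V, rpl-11.1 stood at 6479.6, 5816 and 6561 normalized reads in Day 1 control and 4796, 4745 and 4204 in Day 1 RNAi. On the X, rpl-11.2 stood at 62.7, 153 and 200.3 in Day 1 control and 643, 1123 and 1455 in Day 1 RNAi. Every RNAi library was below the controls for the first copy and above them for the second. In the authors' deposited table rpl-11.1 fell by 0.51 (BH-adjusted p = 8.12e-05) and rpl-11.2 rose by 2.62 (1.34e-06) on the log2 scale. The share of the pair's reads on rpl-11.2 was 0.96, 2.56 and 2.96% in Day 1 control and 11.8, 19.1 and 25.7% in Day 1 RNAi.

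At Day 2 the copies differed in the same way. The rpl-11.2 level was 84.9, 77.7 and 48.7 in Day 2 control, 1303, 1385 and 1156 in GFP-negative and 4117, 4088 and 3547 in GFP-positive libraries. The GFP-positive libraries were the highest of the 21 libraries of the reporter strain for this gene. Its share of the pair was 0.91 to 1.24% in control, 22.1 to 28.6% in GFP-negative and 53.4 to 57.9% in GFP-positive gonads, where the X-linked copy held more reads than the other. Deposited log2 fold changes against the shared control were 3.97 and 5.31 for rpl-11.2 and −0.90 and −1.50 for rpl-11.1 (BH-adjusted p at most 1.35e-06) in the authors' deposited table. The sum of the pair was 6593 ± 1125 normalized reads in Day 2 control, 5256 ± 564 in GFP-negative and 7099.9 ± 449 in the GFP-positive group (SD, n = 3 each).

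L4 gonads differed from adult controls in the same gene. At L4, rpl-11.2 stood at 1573, 1149 and 1649 in control and 2404, 585 and 805 in RNAi libraries. The L4 groups overlapped, RNAi library a being above and b and c below all controls. From L4 to Day 1 control rpl-11.2 fell by 3.84 on the log2 scale (SE 0.645, BH-adjusted p = 0.000578 in limma voom). At L4 its share of the pair was 11.3 to 18.6% in control and 8.18 to 31.2% in RNAi. Somatic gonad markers were also higher in L4 control (0.092 to 0.120% of reads) than in Day 1 control (0.013 to 0.027%), which was not tested against rpl-11.2.

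Mutant gonads had more rpl-11.2 as well. In wild type rpl-11.2 stood at 40.2, 108 and 38.1 normalized reads, in glh-1 mutants at 634 and 1132 and in pgl-1 mutants at 1659.7, 3162 and 1841. All mutant libraries were several-fold above all wild-type libraries. Deposited log2 fold changes were 3.42 in glh-1 and 4.94 in pgl-1 mutants (BH-adjusted p = 1.13e-14 and 3.59e-36) in the authors' deposited table. For rpl-11.1 they were −0.69 (0.182, not passed) and −0.82 (0.0391) in the authors' deposited table. The share of the pair on rpl-11.2 was 0.64 to 1.04% in wild type, 13.6 and 21.9% in glh-1, and 34.03 to 39.67% in pgl-1 mutants. Whether reads of one copy were counted on the other was not tested, and the sources used here do not give the read counter.

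Another pair behaved in the same way, with one copy outside the chosen set. Genes rpl-25.2, on chromosome I, and rpl-25.1, on the X, encode versions of another large subunit protein. At Day 1, rpl-25.2 stood at 2864, 3283 and 3829.5 in control and 2044, 2044 and 1898 in RNAi, and rpl-25.1 at 19.9, 39.5 and 39.5 and 589.9, 809.9 and 1143. Neither copy overlapped between groups, and only rpl-25.1 was higher in RNAi. The share of the pair on rpl-25.1 averaged 0.97% in Day 1 and 0.51% in Day 2 control, 29.4% in Day 1 RNAi, 29.6% in GFP-negative and 51.3% in the GFP-positive group. It averaged 0.39% in wild type, 26.4% in glh-1 and 39.99% in pgl-1 mutants, and 13.6 and 22.1% in L4 control and RNAi. In the authors' deposited table rpl-25.1 rose in the 3 adult RNAi comparisons with control by 4.52, 4.64 and 5.74 on the log2 scale, while rpl-25.2 fell by 0.79, 1.34 and 1.65.

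The other members that left the set were low. Gene rpl-24.2, related to a ribosome biogenesis factor of yeast rather than to a protein of the finished ribosome, held 3.86 to 7.46% of the reads of the pair it forms with rpl-24.1 in the group averages. It stood at 226, 229 and 228 in Day 1 control and 231, 197 and 148 in Day 1 RNAi, and at 227, 234 and 148, 194, 220.3 and 198 and 300.5, 302 and 277 in Day 2 control, GFP-negative and GFP-positive libraries. These ranges overlapped apart from the GFP-positive one, which was higher. It did not pass in any of the 7 comparisons of the authors' deposited table. In limma voom over all 7 groups it rose in GFP-positive gonads by 0.55 (SE 0.131, BH-adjusted p = 0.00119), where the scaling stated above differs from the deposited one. Its partner rpl-24.1 stood at 4181, 5266 and 6360.3 in Day 1 control and 3265, 3585 and 3682 in RNAi, and followed the set.

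Gene rpl-42 was close to the limit of detection. It stood at 0 in all 3 Day 1 control libraries, where a count of 0 allows up to 1.76, 2.52 and 9.10 normalized reads in libraries a, b and c (3 reads each, counting error only), and at 11.7, 30.8 and 13.7 in Day 1 RNAi. All RNAi libraries were above these limits. At L4 it stood at 16.4, 8.02 and 3.47 in control and 24, 13.8 and 6.67 in RNAi, with overlap. At Day 2 it stood at 0.85, 0 and 0 in control, 5.15, 4.41 and 5.12 in GFP-negative and 3.49, 1.14 and 5.55 in GFP-positive libraries. The deposited log2 fold changes of 3.38 at Day 1 and 3.13 in GFP-negative gonads (BH-adjusted p = 0.000231 and 0.00376 in the authors' deposited table) compare with controls at or near 0, so they do not measure the size of the rise. In wild type rpl-42 stood at 0.63, 0 and 0 and in the mutants at 0 to 2.7, and no change was called there.

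**Figure D4:**
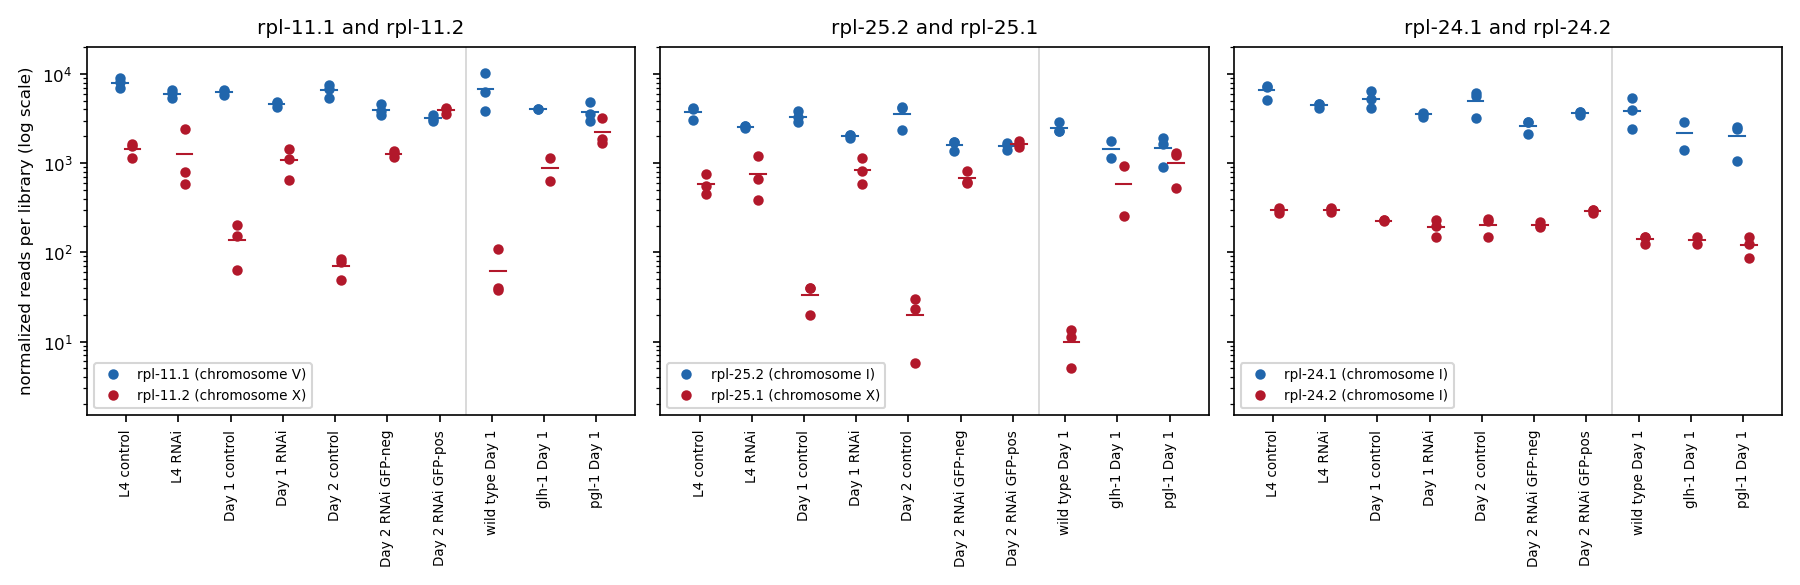
Normalized reads per library on a log axis for 3 paralog pairs, with a line at each group mean; blue is the more abundant copy in control gonads and red the other. The red points of rpl-11.2 and rpl-25.1 lie at or below 200.3 in adult controls and wild type and meet the blue points in Day 2 GFP-positive gonads, while rpl-24.2 stays between 86 and 316 throughout.

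Other genes of protein synthesis were read from lists of known members. Over all genes in the authors' deposited table, 10.4% fell at Day 1, 21.5% (GFP-negative) and 23.5% (GFP-positive) at Day 2, 2.47% in glh-1 and 8.84% in pgl-1 mutants. A list of 6 other cytosolic ribosome genes (rla-0, rla-1 and rla-2 of the stalk, ubl-1 and ubq-2, which encode ubiquitin fused to a ribosomal protein, and rack-1) fell in 6 of 6 cases in the Day 1, GFP-negative and GFP-positive comparisons, 5 of 6 in pgl-1 and 1 of 6 in glh-1 mutants. Their medians in the authors' deposited table were −0.64, −1.13, −0.98, −1.01 and −0.72. Translation initiation factors fell in 11, 24 and 24 of 25 cases at Day 1 and in GFP-negative and GFP-positive gonads, with medians of −0.43, −0.67 and −1.02 in the authors' deposited table. Ribosome biogenesis genes fell in 13 of 50, 39 of 52 and 45 of 52 cases, with medians of −0.30, −0.52 and −0.81 in the authors' deposited table. Genes of TOR and S6 kinase signalling fell in 2, 8 and 10 of 13 cases, the first close to the share of all genes, and chaperones of new proteins in 12, 16 and 17 of 17. In the mutants, biogenesis genes fell in 0 of 50 cases in glh-1 and 18 of 52 in pgl-1, and TOR genes in none, while 1 TOR gene rose in each. Unlike ribosomal protein genes, whose median was 0.19, biogenesis genes were lower in GFP-positive than GFP-negative gonads, with 21 of 52 falls (18.6% of all genes fell), 4 rises (19.4% rose) and a median of −0.32 in the authors' deposited table. In that comparison TOR genes had 8 falls and 2 rises of 13 (median −0.37). Initiation factors had 10 falls and 1 rise of 25 (median −0.25), by the authors' deposited table. Medians there were 0.14 for other ribosome genes, 0.08 for elongation factors and −0.06 for chaperones. At L4 no gene of these lists was called.

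**Figure D5:**
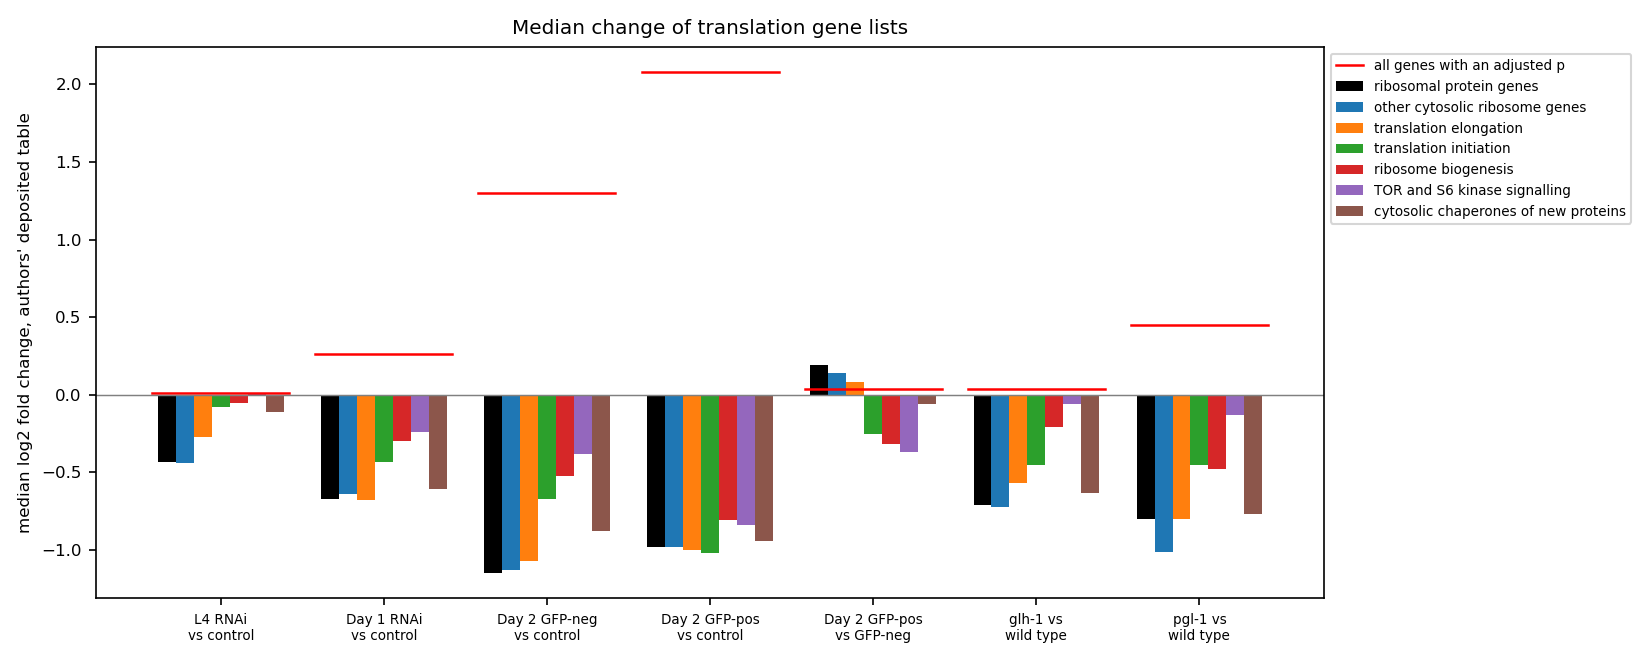
Median log2 fold change in the authors' deposited table for the ribosomal protein genes and 6 other lists in 7 comparisons, with a red line at the median of all genes. Ribosomal protein genes, other ribosome genes and elongation factors share medians near −1 in both Day 2 comparisons with control and near −0.7 at Day 1. Chaperones are close to them (−0.61 at Day 1, −0.88 GFP-negative, −0.94 GFP-positive). In GFP-positive gonads initiation factors (−1.02), TOR (−0.84) and biogenesis genes (−0.81) are close as well. Those 3 lists are nearer 0 at Day 1 and in GFP-negative gonads.

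Elongation factors split like the paralog pairs. Of 8 genes found, 6 fell and 2 rose in each of the 3 adult RNAi comparisons with control and in pgl-1 mutants, and 3 fell and 2 rose in glh-1 mutants. The risers were iff-2 and eef-1A.2, second copies of the genes for eIF5A and for elongation factor 1A. In Day 1 RNAi against control, the germline-required gene iff-1 stood at 1651 ± 134 against 3258 ± 429 and iff-2 at 244 ± 103 against 46.9 ± 19.9 normalized reads (SD, n = 3 each). By the authors' deposited table, their log2 fold changes were −1.03 and 2.12 (BH-adjusted p = 9.13e-14 and 1.69e-07). In GFP-positive gonads iff-2 held 62.4 to 72.7% of the reads of that pair, against 0.63 to 1.14% in Day 2 control. The eef-1A.2 gene held 20.4 to 24.4% of its pair in GFP-positive gonads and 0.46 to 0.52% in Day 2 control. In Day 1 RNAi against control, eef-1A.2 stood at 2041 ± 579 against 322 ± 34 and eef-1A.1 at 32768 ± 4082 against 50055 ± 5789.7 (SD, n = 3 each). Their log2 fold changes were 2.55 and −0.67 in the authors' deposited table.

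The 5 genes outside the set whose group averages followed it best over the 7 RNAi groups, of 28884 compared, were ubq-2 (Pearson r = 0.9969), rla-1 (0.9966), C37A2.7 (0.9925), rack-1 (0.9921) and Y37E3.8 (0.9901). The RefSeq gene table names C37A2.7 rplp-2.1 and Y37E3.8 rpl-27A, so these are ribosomal protein genes that the naming rule missed. The averages of ubq-2 were 3646 in Day 1 control, 2379 in Day 1 RNAi, 3822 in Day 2 control, 2098 in GFP-negative and 2723.5 in the GFP-positive group. Its order of groups is that of the set, with L4 control highest at 5151 and GFP-negative gonads lowest. A further pair of rows, F54D7.6 and F54D7.7, named rpl-41.1 and rpl-41.2 by RefSeq, are outside the rule as well. The second fell in GFP-negative gonads (−1.16, adjusted p = 1.16e-06), GFP-positive gonads (−0.73, 0.000142) and pgl-1 mutants (−1.02, 0.0313) of the authors' deposited table, and did not pass in the other 4 comparisons. The first did not pass in any comparison of the authors' deposited table; it stood at 237, 368 and 239.7 in Day 1 control and 269, 329.7 and 295 in Day 1 RNAi, which overlap.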

How the data were processed

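Gonad RNA, depleted of ribosomal RNA and made into libraries that do not mark the strand, was sequenced on 3 HiSeq models, per the labels' protocols. Per the submitters' processing notes, the authors used TopHat2 and DESeq2. Their versions are, like the read counter, the genome build and the annotation, not given in the sources used here. The deposited signal values are average normalized read counts per group, per the file headers, made apart for the 7 RNAi groups and the 3 mutant experiment groups. For 7 comparisons the authors deposited a log2 fold change, an adjusted p-value and a mean expression (normalized reads over the libraries compared), per the file headers. Further deposited columns hold 0 or 1 for the authors' gene categories, per the file headers, a label with no unit.

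Every count of calls from the authors' deposited table uses an adjusted p threshold of 0.05. An average of 2 or 3 whole read numbers divided by fixed factors has few solutions, and this gave the whole reads per library. For 9482 to 13520 genes per comparison these gave back the deposited mean expression, which played no part in finding them, to a relative 1e-06 in 100% of cases. For 0 to 136 genes per group several solutions existed and the mean expression chose among them. Levels, SDs and n rest on these reads. Deposited fold changes of members are mostly smaller in size than ratios of averages scaled within the same comparison. Ratios of averages scaled over all groups of an experiment differ from this. Against them the deposited member median was larger in size at Day 1 (−0.67 against −0.62), in GFP-negative (−1.15 against −0.97) and in GFP-positive gonads (−0.98 against −0.52). It was smaller in the other comparisons. Because the group averages are not counts, no count test was applied to them as deposited.

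The 4 comparisons without deposited columns were fitted with limma 3.58.1 voom in R 4.3.3 on the recovered reads, all groups of an experiment together, for 23460 and 15189 genes whose average reached 1 normalized read in some group, with BH adjustment over all of them. The procedure was tested on simulated data. Python 3.11.15 served for the rest. Depth (1027223 to 9079321 reads) gives a gene at 1000 normalized reads little counting error, and one near 0 much. Exon lengths, overlaps and chromosomes came from the WBcel235 annotation, release 115, where 74 of 75 member names matched; RefSeq names are stated as such.

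The members and lists were chosen with earlier results of these data known. Genes named are paralog pairs, the X-linked member, the 5 highest per kb in Day 1 control, the 3 lowest and 3 highest fold changes per comparison, and members outside the main direction; likeness is the Pearson correlation of log2(average + 1). Genes rps-9 at L4, rpl-4 at L4, rpl-3 in mutants and the shares of rpl-23, rps-24 and rps-16 were chosen after their values were seen, as were F54D7.6 and F54D7.7 and the 1.2-fold window for shares within the set. Leaving rpl-11.2, rpl-42 and rpl-24.2 out of the spread within the set was not planned beforehand. Alternatives were other scalings (TMM, total reads), no filter, a stricter threshold of 0.01, voom for the deposited comparisons and leaving out each library.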

Additional observations from a re-analysis of the deposited data

Results flagged for a closer look

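For 3 genes the RNAi effect differed between stages by a test of the difference itself (limma voom on the recovered reads, Day 1 RNAi effect minus L4 RNAi effect, BH over 23460 genes). The difference was 3.51 on the log2 scale for rpl-11.2 (SE 0.752, adjusted p = 0.00813). It was 4.34 for rpl-42 (SE 1.03, adjusted p = 0.0164), a gene at 0 in Day 1 control libraries. For rpl-25.1, the X-linked copy outside the set, it was 4.36 (SE 0.816, adjusted p = 0.00336). All 3 were higher in every Day 1 RNAi library than in every Day 1 control library, and overlapped between the L4 groups. At L4 control the same genes were already above their Day 1 control levels (rpl-11.2 at 1457 ± 269.7 against 139 ± 69.9, SD, n = 3 each).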

How the results depend on the processing

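The number of members called lower or higher was recomputed with limma voom on the recovered reads (the scaling over all groups of an experiment, TMM or total reads), with a threshold of 0.01 on the deposited adjusted p, and, chosen after the data were seen, with voom on the groups of a comparison alone. At Day 1 the 72 deposited calls became 8, 42 (TMM) and 19 (total reads) with all 7 groups in the fit, and 70 with the Day 1 groups alone. The cause was not tested. For Day 2 GFP-positive against GFP-negative gonads the 10 deposited calls became 20, 30 (TMM) and 24 (groups alone), and 5 at the threshold of 0.01. For glh-1 mutants the 26 deposited calls became 51 (TMM), 40 (total reads), 56 (groups alone) and 5 at the threshold of 0.01, and for pgl-1 mutants the 57 became 28 at that threshold. For Day 1 against L4 control the 7 calls became 3 with TMM and 3 without the filter on low genes. Counts in the other comparisons stayed within 1.5 times under these alternatives. Shares over all genes were not worked out for these alternative counts or for those without a library.

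Leaving out each library in turn in the voom fit gave 0 to 1 calls for L4 RNAi, 4 to 16 for Day 1, 73 to 73 and 48 to 74 for GFP-negative and GFP-positive RNAi against control, and 6 to 11 between the last 2. It gave 1 to 35 for glh-1 and 38 to 71 for pgl-1 mutants, 3 to 17 for Day 1 against L4 control and 0 to 50 for Day 2 against Day 1 control. The differences between RNAi effects gave 0 to 2 (Day 1 and L4) and 0 to 30 (Day 2 GFP-negative and Day 1); the 50 and the 30 are those without Day 2 control c. In the fits without a glh-1 library the lone one is assumed to vary like the other groups. Of 996 fold changes of named members under alternatives, 884 kept direction and call, 81 lost and 31 gained a call, and 0 changed sign while called. No paired analysis was possible because the recovered libraries carry no replicate numbers. Depth limits rpl-42, which is near 0, and the glh-1 group has 2 libraries. Gene rpl-16 was listed at 0 in all 29 libraries, and the reason was not tested.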
